A study of Carica papaya with 12 samples.

Results

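The floral MADS-box genes PISTILLATA (PI), APETALA3 (AP3) and SEPALLATA3 (SEP3) were followed across flower buds of 3 sexes and 2 sizes of papaya (Carica papaya). They were found by gene ID: 1 model for PI (evm.model.supercontig_26.316), 2 for AP3 (evm.model.supercontig_6.199, here AP3-1, and evm.model.supercontig_6.202, here AP3-2) and 1 for SEP3 (evm.model.supercontig_43.78). These are 4 of the 27689 gene models counted, and all 4 were among the 19339 with enough reads to be tested. The names are those of the paper, which lists the AP3 models as isoforms 1 and 2, since none of the IDs could be matched to the RefSeq gene table.

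The buds were untreated and came from male ‘AU9’, hermaphrodite ‘SunUp’ and female ‘AU9’ plants, at 7–12 mm (post-meiosis in the labels) and at 1–6 mm (pre-meiosis). Each of the 6 groups had 2 libraries, which the paper calls biological replicates, without saying whether they came from separate plants. Since hermaphrodites were the only ‘SunUp’ plants, sex and cultivar cannot be told apart in any comparison with hermaphrodites. Replicate 1 was sequenced as single reads on one platform (12704714 to 16564137 counts per library) and replicate 2 as read pairs on another (4520811 to 8554135 counts). Each bud size range spans several stages of development, and whole buds hold all floral organs.

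MADS-box proteins bind DNA as dimers and larger complexes, and the combination present in a floral whorl specifies which organ forms. In Arabidopsis, PI and AP3 are the B-function proteins: they act as a heterodimer, are needed for petals and stamens, and maintain their own transcription. SEP3 belongs to the E function, which bridges B-function and other MADS-box proteins into complexes in petals, stamens and carpels. Male papaya flowers form stamens and a rudimentary pistil, hermaphrodite flowers form stamens and carpels, and female flowers form carpels without stamens, while all of them have petals.

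The 4 models lie on 3 scaffolds of the PacBio assembly on which the reads were counted, and no other gene model overlaps their spans. PI has 7 exons on the plus strand (scf7180000008439, bases 1269311 to 1271809) and 630 counted bases. SEP3 has 8 exons on the minus strand (scf7180000009197, bases 283565 to 292419) and 731 counted bases. That length is not a whole number of codons (243.67), unlike those of PI (210), AP3-1 (213) and AP3-2 (228). The cause was not tested, and per-kilobase values of SEP3 rest on this length. Both AP3 models lie on the minus strand of scf7180000009679, AP3-1 at bases 30055 to 31724 with 6 exons and 639 counted bases, and AP3-2 at bases 21517 to 23291 with 7 exons and 684 counted bases. They are therefore separate places in this assembly, 6763 bases apart with 2 other gene models between them, and not splice forms counted at one place. Their exons have the same lengths in the same order (188, 67, 62, 100, 42 and 180 bases) except for exon 6 of AP3-2, of 45 bases or 15 codons, which AP3-1 lacks. A read with several alignments was counted in each place, so reads shared by these models enter both counts, and how many did so is not known from the counts.

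**Figure D1:**
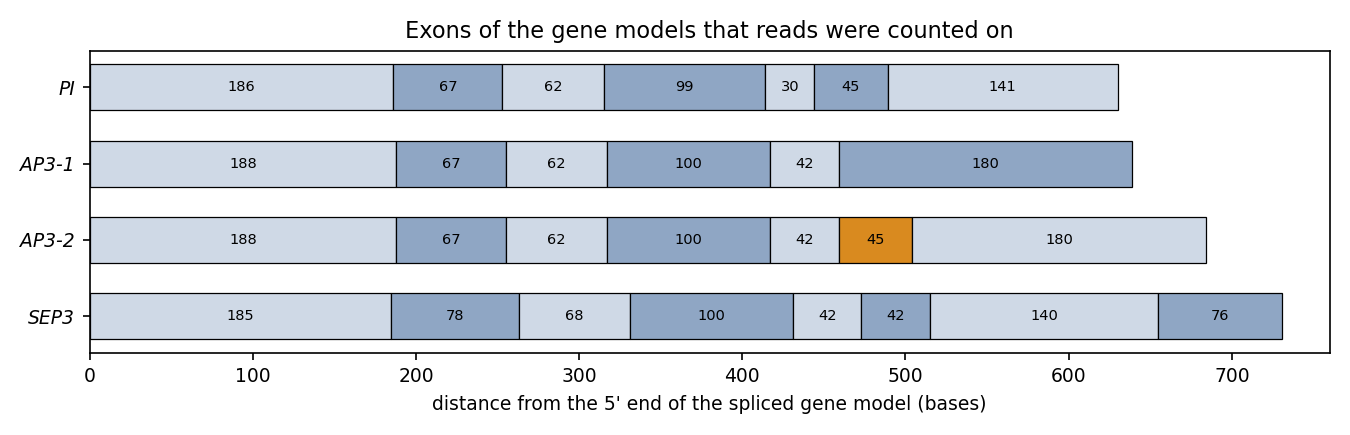
Exons of the 4 gene models in order from the 5′ end, with introns left out; the x axis is in bases and each box carries its length. The orange box is the 45-base exon 6 of AP3-2, the only difference in exon lengths between the AP3 models.

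All 4 genes were among the more abundant transcripts of every group, female buds included. Counts of single libraries were 586 to 2942 for PI, 1128 to 7608 for AP3-1, 769 to 3196 for AP3-2 and 933 to 3529 for SEP3. In CPM (counts scaled by the TMM method to the size of the library) per kilobase of gene model, PI ranked between the 88.76th and the 98.06th percentile of tested genes over the 6 groups. These percentiles were 95.58 to 99.54 for AP3-1, 93.29 to 97.91 for AP3-2 and 91.61 to 97.68 for SEP3. On the same per-kilobase scale AP3-1 had the highest level of the 4 genes in 11 of 12 libraries, and SEP3 in the remaining one.

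PI differed most in level between male buds of 7–12 mm and female buds of 1–6 mm. At 7–12 mm PI had 229 and 275 CPM in male buds (replicates 1 and 2), 178 and 210 CPM in hermaphrodite buds, and 99.3 and 80.2 CPM in female buds. In the 1–6 mm class it had 129 and 123 CPM in male buds, 129 and 165 CPM in hermaphrodite buds, and 64.1 and 73.6 CPM in female buds. Both female groups thus lay below every male and hermaphrodite library, and the highest group mean was 3.66 times the lowest. The order of the mean levels was male 7–12 mm, hermaphrodite 7–12 mm, hermaphrodite 1–6 mm, male 1–6 mm, female 7–12 mm and female 1–6 mm. Of the neighbours in this order, hermaphrodite and male buds of 1–6 mm differed by 21.4 CPM, less than the SD of the hermaphrodite group (25.5 CPM, n = 2).

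AP3-1, the more abundant of the AP3 models, had the widest range. Buds of 7–12 mm had 593 and 633 CPM in males, 321 and 368 CPM in hermaphrodites, and 154 and 156 CPM in females. Those of 1–6 mm had 268 and 235 CPM in males, 231 and 253 CPM in hermaphrodites, and 164 and 139 CPM in females. Male buds of 7–12 mm stood above all others, with a mean 4.05 times that of female buds of 1–6 mm. Male and hermaphrodite buds of 1–6 mm overlapped, and so did the female groups of the 2 sizes.

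AP3-2 followed a similar order over a narrower range. Its levels at 7–12 mm were 249 and 272 CPM in male buds, 191 and 189 CPM in hermaphrodite buds, and 123 and 111 CPM in female buds. Its levels at 1–6 mm were 145 and 138 CPM in male buds, 165 and 173 CPM in hermaphrodite buds, and 122 and 110 CPM in female buds. The highest group mean was 2.25 times the lowest, and the female groups of the 2 sizes overlapped. Replicates of a group were close, with an SD of 0.890 to 7.25% of the mean.

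SEP3 ordered the groups differently, with hermaphrodite buds highest at both sizes. The levels were, at 7–12 mm, 184 and 281 CPM in male buds, 221 and 314 CPM in hermaphrodite buds, and 172 and 198 CPM in female buds. The levels were, at 1–6 mm, 130 and 155 CPM in male buds, 170 and 214 CPM in hermaphrodite buds, and 91.0 and 115 CPM in female buds. The 4 highest groups (hermaphrodite 7–12 mm, male 7–12 mm, hermaphrodite 1–6 mm and female 7–12 mm) each overlapped the next in the order, while male and female buds of 1–6 mm stood below them. SEP3 was higher in replicate 2 than in replicate 1 in all 6 groups, which was the case in 4, 4 and 2 groups for PI, AP3-1 and AP3-2. In a fit with the replicate number as a term, SEP3 was higher in replicate 2 by 0.38 on the log2 scale (adjusted p = 0.00125), and the adjusted p for the other 3 genes was 0.349 to 0.979. The replicate number is also the sequencing platform, and the part of either in this difference was not tested.

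**Figure D2:**
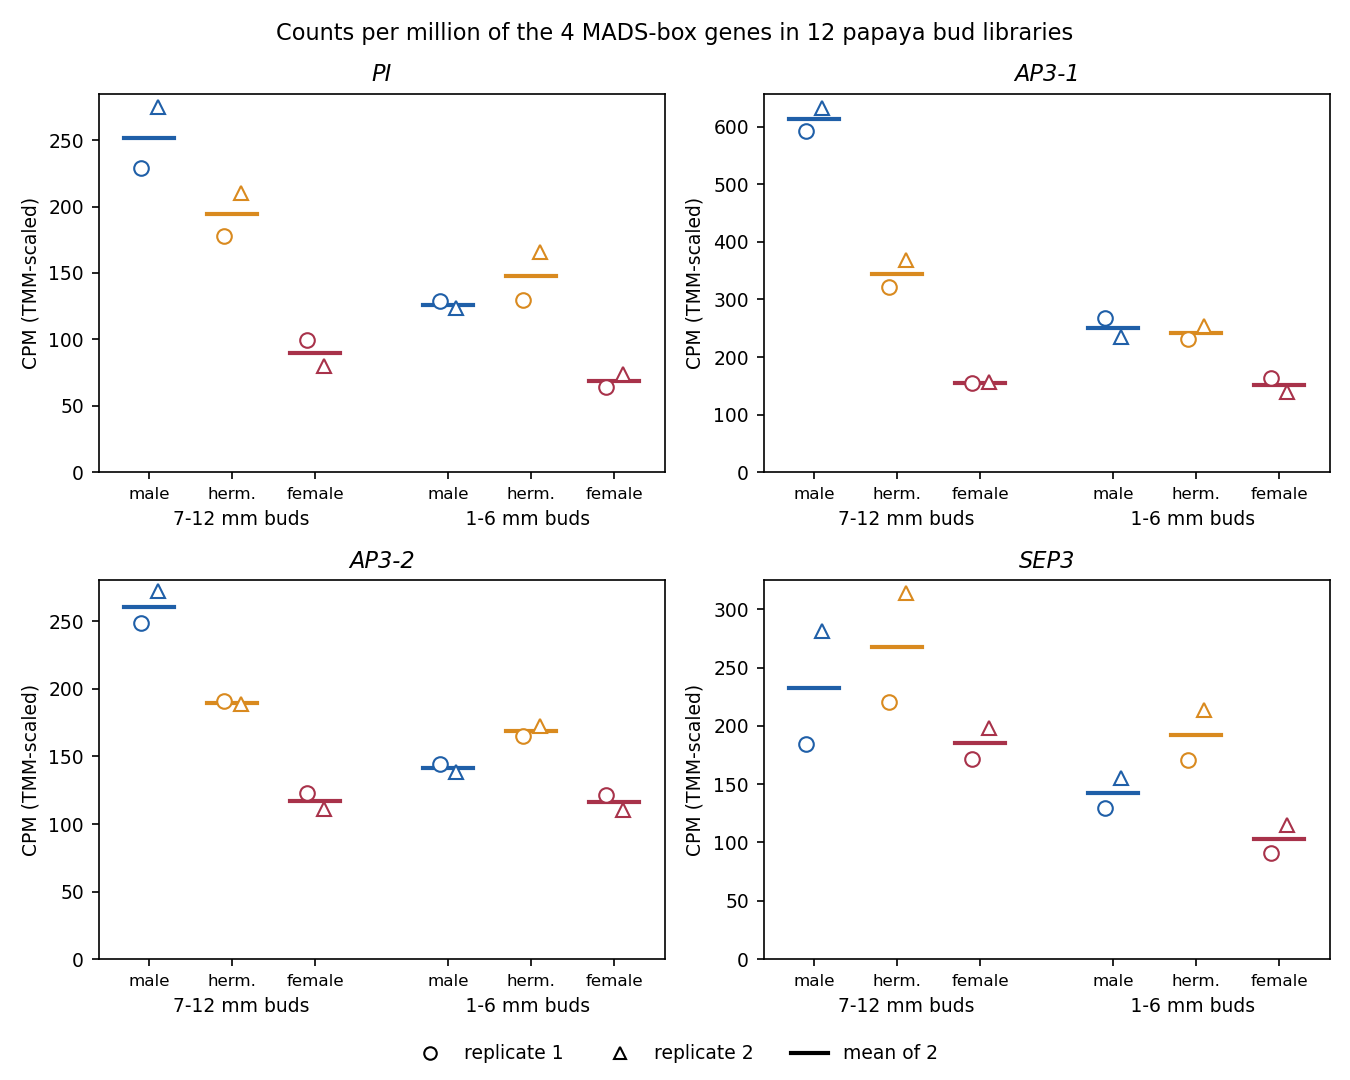
Levels of the 4 genes in the 12 libraries, in CPM scaled by TMM, by sex within each bud size (7–12 mm on the left, 1–6 mm on the right); circles are replicate 1, triangles replicate 2 and bars the mean of 2. Female libraries are the lowest for PI, AP3-1 and AP3-2 at each size and for SEP3 at 1–6 mm. The share of all tested genes with such a pattern was not computed. For SEP3 the triangle lies above the circle in all 6 groups.

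The first question was whether these genes differ between buds that form stamens and buds that do not. A set of 6 genes of anther and tapetum development (SPL/NZZ, DYT, AMS-1, AMS-2, CpMS1 and TDF1) was used to check the sexes. They are part of a list of 10 anther pathway genes described below, and the study singled out CpMS1 for its differences in these samples. Of the receptor and ligand genes on that list, EMS1 and TPD1 at 7–12 mm and RPK2 at 1–6 mm were called lower in male than in female buds. CLV1 was called higher at 7–12 mm. The summed level of the set of 6 genes was 792 to 1408 CPM in male, 787 to 1875 CPM in hermaphrodite and 0.217 to 2.70 CPM in female libraries. In hermaphrodite buds of 1–6 mm CpMS1 had 2 counts in 1 library and none in the other. It was not called there against female buds (edgeR, adjusted p = 0.816), while the other 5 genes of the set were called higher. Most of the sum in these buds came from AMS-1 and TDF1, at 580 and 287 CPM on average. In female libraries 1 to 4 of the 6 had no count. PI, the AP3 models and SEP3, in contrast, had 64.1 CPM or more in every female library. In whole buds, fewer cells of a type and less RNA per cell cannot be told apart, and the part of the share of stamen tissue in the differences below was not tested.

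At 7–12 mm, 3 of the 4 genes were higher in male than in female buds, by 2.22 to 3.95 times in the fit, and SEP3 was not called. A gene was called at an adjusted p under 0.05 (edgeR quasi-likelihood test, Benjamini-Hochberg over all tested genes) and a change above 2-fold, and 16.5% of all tested genes were called in this comparison in either direction. AP3-1 rose 3.95-fold (log2 fold change 1.98 ± 0.13 SE, adjusted p = 4.6e-06), PI 2.80-fold (1.49 ± 0.17, adjusted p = 1.1e-04) and AP3-2 2.22-fold (1.15 ± 0.10, adjusted p = 2.9e-05). Each of these 3 calls held when any single library was left out. For SEP3 the log2 fold change was 0.33 (95% interval −0.21 to 0.87, adjusted p = 0.342) and the male and female ranges overlapped. Leaving out male replicate 2 gave SEP3 a value of −0.03.

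At 1–6 mm none of the 4 genes was called between male and female buds, against 12.8% of all tested genes. PI and AP3-1 had adjusted p values under the limit, as did 26.2% of all tested genes, but changes below 2-fold. Their log2 fold changes were 0.87 ± 0.17 (adjusted p = 0.00331) and 0.73 ± 0.12 (adjusted p = 0.00161). AP3-2 had 0.29 ± 0.10 (adjusted p = 0.0676), and SEP3 had 0.47 ± 0.24 (adjusted p = 0.196). The male and female libraries did not overlap for any of the 4. With 2 libraries per group this adds nothing to the tests, and the share of all tested genes without overlap was not computed.

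Hermaphrodite buds, which came from the other cultivar, were compared with female buds in the same way. At 7–12 mm PI was 2.16-fold higher (log2 fold change 1.11 ± 0.17, adjusted p = 7.3e-04) and AP3-1 2.22-fold higher (1.15 ± 0.12, adjusted p = 1.1e-04), and 15.3% of all tested genes were called. AP3-2 had 0.70 ± 0.10 (adjusted p = 6.7e-04), below the 2-fold limit, and SEP3 had 0.53 ± 0.24 (adjusted p = 0.128). Of all tested genes, 31% had an adjusted p under 0.05 at this size. At 1–6 mm 1 of the 4 genes was called, PI at 2.14-fold (1.10 ± 0.17, adjusted p = 9.9e-04), against 11.7% of all tested genes. AP3-1 had 0.68 ± 0.12 (adjusted p = 0.00277), AP3-2 0.54 ± 0.10 (adjusted p = 0.00352) and SEP3 0.90 ± 0.24 (adjusted p = 0.0230). All 4 genes thus had an adjusted p under 0.05 at 1–6 mm, as did 24.9% of all tested genes. The calls of PI lay close to the 2-fold limit: at 7–12 mm its value was 0.97 without female replicate 2 and 0.99 without hermaphrodite replicate 2, and at 1–6 mm it was 1.00 without female replicate 1 and 0.91 without hermaphrodite replicate 2, all of them just under the limit with adjusted p of 0.00646 to 0.0157. In the other direction, SEP3 at 1–6 mm passed the limit at 1.07 without female replicate 2 and at 1.06 without hermaphrodite replicate 1.

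Male and hermaphrodite buds both form stamens, and none of the 4 genes was called between them at either size, against 8.58% of all tested genes at 7–12 mm and 4.59% at 1–6 mm. At 7–12 mm both AP3 models had adjusted p values under the limit, as did 18.8% of all tested genes, but changes below 2-fold. Their log2 fold changes of male over hermaphrodite buds were 0.83 ± 0.12 for AP3-1 (1.78-fold, adjusted p = 0.00142) and 0.46 ± 0.10 for AP3-2 (1.37-fold, adjusted p = 0.0118). PI had 0.37 ± 0.16 (adjusted p = 0.154) and SEP3 −0.20 ± 0.24 (adjusted p = 0.667). The values at 1–6 mm were 0.05 ± 0.12 for AP3-1, −0.25 ± 0.10 for AP3-2, −0.22 ± 0.16 for PI and −0.43 ± 0.24 for SEP3, with adjusted p of 0.164 to 0.877. The 95% interval for AP3-1 at 1–6 mm, −0.22 to 0.33, leaves room for changes of that size in either direction.

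**Figure D3:**
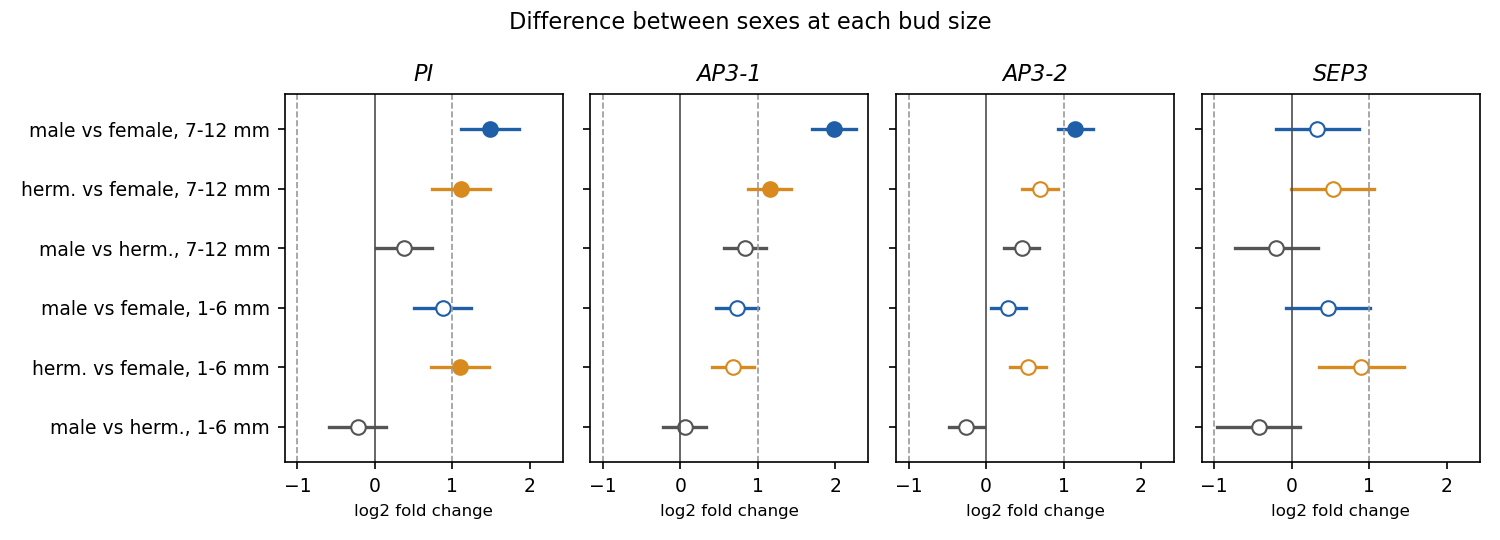
Log2 fold changes between sexes for the 4 genes at 7–12 mm (upper 3 rows) and 1–6 mm (lower 3 rows), with 95% intervals; filled points were called, open points were not, and dashed lines mark the 2-fold limit. AP3-1 in male against female buds of 7–12 mm lies farthest from 0, at 1.98, and the intervals of SEP3 are the widest.

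The next question was whether the genes change as buds grow. In male buds AP3-1 was 2.44-fold higher at 7–12 than at 1–6 mm (log2 fold change 1.29 ± 0.12, adjusted p = 3.1e-04), the only call among the 4 genes, against 5.69% of all tested genes. PI stood at the 2-fold limit (1.00 ± 0.16, adjusted p = 0.00422) and passed it at 1.02 without replicate 1 of 1–6 mm and at 1.12 without replicate 1 of 7–12 mm. AP3-2 had 0.88 ± 0.10 (adjusted p = 7.3e-04) and SEP3 0.71 ± 0.24 (adjusted p = 0.101). An adjusted p under 0.05 was shared by 10.9% of all tested genes. The libraries of the 2 sizes did not overlap for any of the 4 genes in male buds. The share of all tested genes without overlap was not computed here either, so this adds nothing to the tests.

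In hermaphrodite buds none of the 4 was called, against 3.05% of all tested genes (5.43% by adjusted p alone). AP3-1 had 0.51 ± 0.12 (adjusted p = 0.0432, and 0.0502 to 0.262 with any single library left out), SEP3 0.48 ± 0.24, PI 0.40 ± 0.16 and AP3-2 0.17 ± 0.10, the last 3 with adjusted p of 0.235 to 0.477. In female buds none was called either, against 1.94% of all tested genes (3.27% with a replicate block). Here the AP3 models had log2 fold changes of 0.03 (95% interval −0.24 to 0.31) for AP3-1 and 0.01 (−0.21 to 0.24) for AP3-2, and PI had 0.39 (0.02 to 0.76, adjusted p = 0.224). SEP3 had the largest value of the 4 in female buds, 0.85 (0.30 to 1.39, adjusted p = 0.0779).

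**Figure D4:**
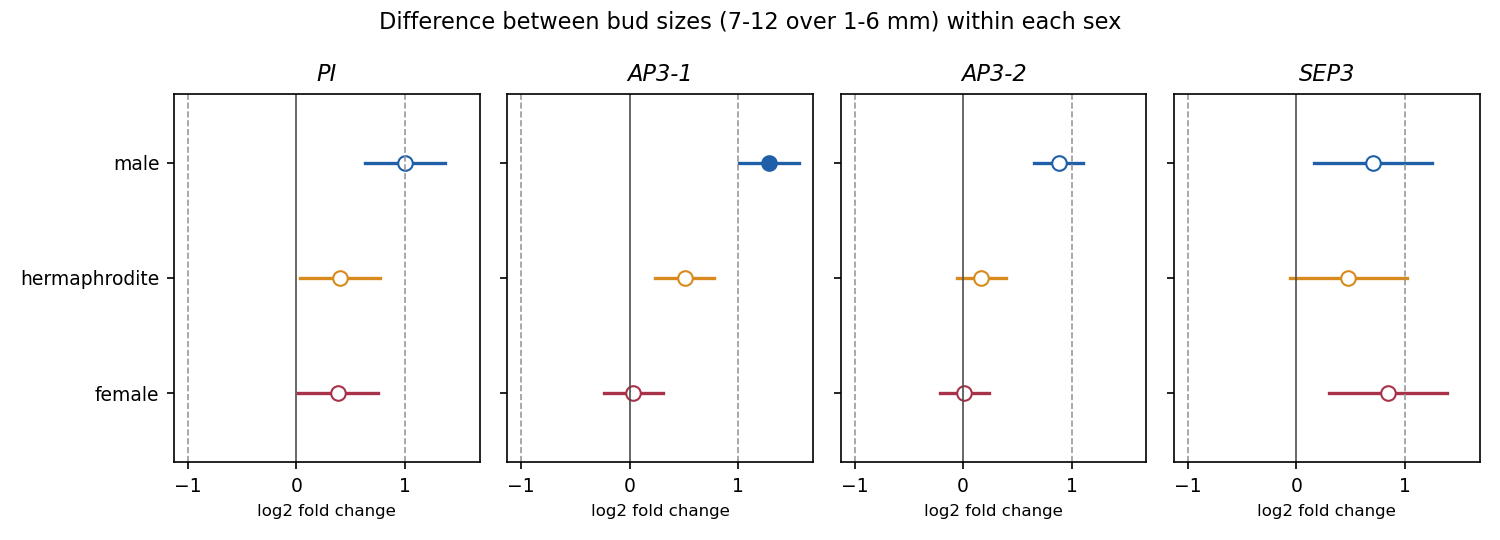
Log2 fold changes of 7–12 over 1–6 mm buds in each sex for the 4 genes, with 95% intervals; the filled point was called and dashed lines mark the 2-fold limit. The AP3 values are 1.29 and 0.88 in male buds and 0.03 and 0.01 in female buds, while the 3 SEP3 intervals overlap.

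Whether the change with size differs between sexes was tested directly, and of the 4 genes AP3-1 alone was called. The change of AP3-1 with size was 1.25 larger on the log2 scale in male than in female buds (SE 0.17, adjusted p = 0.00343). This call was shared by 5.38% of all tested genes (7.75% by adjusted p alone). For AP3-2 it was 0.87 larger (SE 0.14, adjusted p = 0.00711), below the 2-fold limit, and its adjusted p was 0.0597 without replicate 2 of male and hermaphrodite 1–6 mm buds. For PI the difference was 0.61 ± 0.23 (adjusted p = 0.157) and for SEP3 −0.14 ± 0.34 (adjusted p = 0.901). None of the 4 was called for hermaphrodite against female buds, against 2.39% of all tested genes (4.38% with a replicate block), or for male against hermaphrodite buds, against 0.512% (2.29% with a replicate block). In the first of these the values were 0.47 for AP3-1, 0.16 for AP3-2, 0.01 for PI and −0.37 for SEP3, and in the second 0.78, 0.71, 0.60 and 0.23.

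Same-numbered libraries deviated together over all genes, and a replicate block changed no call of the 4 genes. It narrowed the errors most for SEP3, whose SE in male against female buds of 7–12 mm was 0.11 with the block and 0.24 without it. With the block, the adjusted p of SEP3 was 0.0372 in male against female buds of 7–12 mm and 0.00406 at 1–6 mm, with log2 fold changes of 0.30 and 0.48. In hermaphrodite against female buds it was 0.00201 at 7–12 mm and 3.7e-05 at 1–6 mm, with 0.51 and 0.90. In male against hermaphrodite buds of 1–6 mm it was 0.0161, with −0.42. For the change with size it was 7.6e-04 in male, 0.0147 in hermaphrodite and 3.7e-04 in female buds. AP3-2 in male against female buds of 1–6 mm had an adjusted p of 0.0350 with the block. For the change with size in male against hermaphrodite buds, the adjusted p with the block was 0.0228 for AP3-1 and 0.0148 for AP3-2. All of these changes remained below 2-fold. The share of all tested genes with an adjusted p under 0.05 in the block fit was not computed. Without the block that share was 32.9% in male against female buds of 7–12 mm and 26.2% at 1–6 mm.

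Ratios between the genes within a library do not depend on how libraries are scaled, and were compared per kilobase of gene model. AP3-1 exceeded AP3-2 in every library: by 2.55 and 2.49 times in male, 1.80 and 2.09 times in hermaphrodite and 1.34 and 1.505 times in female buds of 7–12 mm. In buds of 1–6 mm the ratio was 1.98 and 1.82 in male, 1.503 and 1.57 in hermaphrodite and 1.44 and 1.35 in female buds. All 4 male libraries thus lay above all 4 female libraries. The mean log2 ratio was 1.13 ± 0.24 in male and 0.49 ± 0.08 in female buds (SD, n = 4 libraries each), and the exact two-sided permutation test gave p = 0.0286, the smallest that 4 against 4 libraries allow. Adjusted over the 9 ratio tests this exact p became 0.0857, above the limit. That test exchanges libraries across bud sizes and replicate numbers. With libraries paired by size and replicate number, an alternative chosen after seeing the data, the male minus female log2 ratio was 0.43 to 0.93 and positive in 4 of 4 pairs. The exact paired p was 0.125, the smallest that 4 pairs allow, so the paired design cannot reach 0.05.

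SEP3 over PI ran the other way, with ratios of 0.692 to 1.09 in male, 1.07 to 1.28 in hermaphrodite and 1.22 to 2.13 in female libraries. The mean log2 ratio was −0.20 ± 0.27 in male and 0.60 ± 0.35 in female buds (SD, n = 4 each, exact permutation p = 0.0286, adjusted 0.0857), and the difference was negative in 4 of 4 pairs (−1.27 to −0.31). No male library reached the lowest female library. PI over the sum of both AP3 models stayed between 0.234 and 0.405 in all 12 libraries. Its mean log2 ratio was −1.67 ± 0.12 in male and −1.72 ± 0.28 in female buds (SD, n = 4 each, exact permutation p = 0.714). The other 6 ratio comparisons had adjusted exact p of 0.0857 to 0.129.

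**Figure D5:**
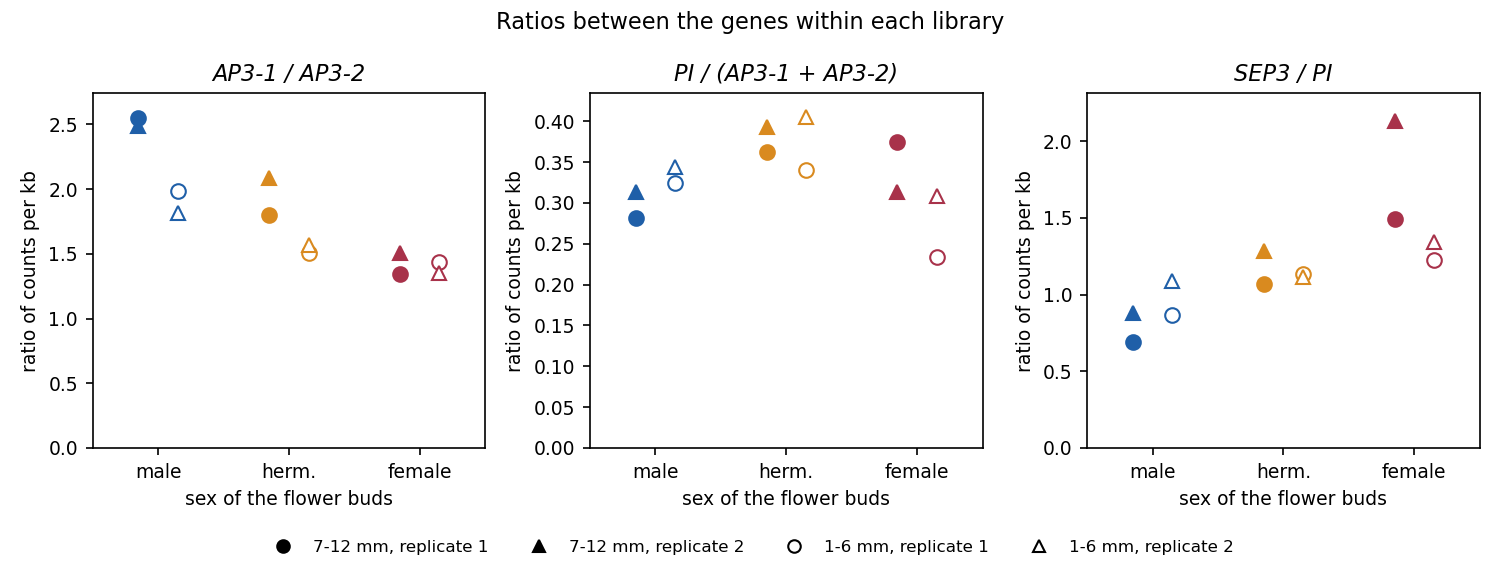
Ratios between the genes in each library, as counts per kilobase of gene model, by sex; filled symbols are 7–12 mm and open symbols 1–6 mm, circles replicate 1 and triangles replicate 2. AP3-1 over AP3-2 is 1.82 to 2.55 in male and 1.34 to 1.505 in female libraries, while PI over both AP3 models overlaps between these sexes.

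The profiles of the members were also compared with those of all 19339 tested genes, as the root mean square difference in log2 CPM over the 12 libraries after taking out the mean of each replicate number. The nearest gene was evm.model.supercontig_1.127 for PI (0.17), evm.model.supercontig_11.34 for AP3-1 (0.13), evm.model.supercontig_3.343 for AP3-2 (0.095) and evm.model.supercontig_189.32 for SEP3 (0.16). The gene nearest to AP3-1 averaged 75.1 CPM in male, 48.4 CPM in hermaphrodite and 19.7 CPM in female buds of 7–12 mm. The one nearest to SEP3 averaged 62.9, 64.6 and 58.3 CPM in the same groups. Among the members themselves, AP3-1 was the 30th nearest gene to PI and PI the 31st nearest to AP3-1 (0.23), while SEP3 was the 553rd nearest to PI. AP3-2 was the 140th nearest to AP3-1 (0.31), so on this measure the profile of AP3-1 was closer to that of PI than to that of its neighbour on the scaffold. By Pearson correlation, which ignores the size of the changes, AP3-2 was instead the 29th and PI the 160th nearest to AP3-1.

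A list of 10 other genes of the anther pathway, most of which act after the floral homeotic genes in Arabidopsis, held the 6 stamen markers and 4 receptor and ligand genes. The study singled out CpMS1 for its differences in these samples, so its direction is not independent evidence. In male against female buds of 7–12 mm, 7 of these 10 were called higher and 2 lower (8.79% and 7.69% of all tested genes), with a median log2 fold change of 4.69, against 1.32 for the 4 members and 0.02 for all tested genes. Among 1–6 mm buds 6 were called higher and 1 lower (5.86% and 6.95% of all tested genes), with medians of 5.84 for the pathway and 0.60 for the members. Single female libraries held 0 to 12 counts of each stamen marker, against 586 or more for the members. The sizes of the marker values, and so the pathway medians, are therefore uncertain. The 6 stamen markers were all among those higher at both sizes, with medians of 9.39 at 7–12 mm and 8.87 at 1–6 mm, joined at 7–12 mm by CLV1, a receptor kinase that limits meristem size (1.17 ± 0.19). The lower ones were the receptor kinase EMS1, which specifies the tapetum (−1.24 ± 0.31), and its ligand TPD1 (−1.75 ± 0.47) at 7–12 mm, and the receptor kinase RPK2 (−1.05 ± 0.17) at 1–6 mm. Each of these 3 lower calls was lost without some single library: EMS1 was −0.85 without female replicate 2 and −0.99 without male replicate 1, TPD1 was −1.22 without female replicate 1, −1.58 without male replicate 1 and −1.94 without male replicate 2, and RPK2 was −0.91 without female replicate 1. The call of CpMS1 at 1–6 mm was lost without female replicate 1 (edgeR, adjusted p = 0.0762) and with the libraries of that comparison alone (adjusted p = 0.351).

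A list of 8 regulators of floral organ growth and identity was compared in the same way. The study lists AP2 and ARF3 for differences in libraries not analysed here, and the rest for differences in these samples, so the direction of the rest is not independent evidence. In male against female buds of 7–12 mm 5 of the 8 were called lower (7.69% of all tested genes) and none higher, with a median log2 fold change of −1.74, and at 1–6 mm 1 was lower, AIL1 (2 of the 8 without female replicate 1), against 6.95% of all tested genes. AINTEGUMENTA-type growth regulators made up 4 of the 5, with −2.49 ± 0.32 for ANT-1, −2.57 ± 0.20 for ANT-2, −2.77 ± 0.38 for AIL1 and −1.34 ± 0.13 for AIL5, and the fifth was the homeobox gene WOX4 (−2.14 ± 0.24). CRC is a carpel gene in Arabidopsis. At 7–12 mm it averaged 39.7 ± 2.28 CPM in male and 59.6 ± 14.5 CPM in female buds (SD, n = 2 each). Its log2 fold change was −0.59 ± 0.19 (edgeR, adjusted p = 0.0388). Hermaphrodite buds of that size, which form carpels, averaged less than male buds, at 26.6 ± 1.87 CPM. In 1–6 mm buds CRC averaged 24.2 CPM in male, 25.5 CPM in hermaphrodite and 42.6 CPM in female buds. AP2, an A-function gene, had −0.33 ± 0.16 (adjusted p = 0.139) in male against female buds of 7–12 mm.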

How the data were processed

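RNA of 12 flower bud libraries had been extracted with TRIzol and made into stranded mRNA libraries. To make the deposited counts, the authors ran FastQC 0.11.5, Trimmomatic 0.36 (trimming), HISAT2 2.0.5 (alignment to the PacBio assembly), SAMtools 1.3.1 and featureCounts 1.5.2. They are whole, unnormalized reads over the exons of each gene model, and per the file headers the strand was used, mates were not joined and a read with several alignments was counted in each place. The models are coding sequences located on that assembly, so reads in untranslated regions are left out.

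The analysis was run in edgeR 4.0.16 (R 4.3.3). Genes were filtered by filterByExpr on the 6 groups (minimum count 10) and libraries scaled by TMM, and a robust quasi-likelihood model with 1 coefficient per group was fitted to all 12 libraries and tested by glmQLFTest. P-values were adjusted by Benjamini-Hochberg over all tested genes, and calls needed an adjusted p under 0.05 and a change beyond 2-fold. Standard errors were derived from the fold change and its F statistic, and log2 CPM used a prior count of 2. P-values rest on the spread between libraries of the same group, estimated jointly over the 6 groups and with information shared between genes. The common coefficient of variation between such libraries was 0.307 without and 0.11 with a replicate block. Much of the spread in the main fit thus goes with the replicate number, which is also the platform, and how much of it is technical was not tested. Ratios were compared by exact permutation. Steps were tested on simulated data.

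Same-numbered libraries share a platform. Their deviations from group means correlated over genes in all 15 pairs of groups (r = 0.734 to 0.839), so the numbers pair the samples, and a replicate block was run as an alternative because the methods name none. Other alternatives were no filter, RLE factors, DESeq2 1.42.0, no fold limit, the libraries of a comparison alone and leaving out libraries. The members and lists, and the rule for named genes (members, both lists and the 3 genes nearest to each member), were chosen with earlier results of these data known. The study's other libraries and its qPCR were not analysed here.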

Additional observations from a re-analysis of the deposited data

Results flagged for a closer look

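The difference between male and female buds in the change with bud size had an adjusted p under 0.05 for both AP3 models, and for AP3-1 alone of them it was also above 2-fold. For AP3-1 it was larger in male buds by 1.25 on the log2 scale (edgeR, adjusted p = 0.00343). AP3-1 averaged 613 ± 28.3 CPM in male buds of 7–12 mm and 251 ± 23.5 CPM in male buds of 1–6 mm, and 155 ± 1.40 and 151 ± 17.4 CPM in female buds of these sizes (SD, n = 2 each). For AP3-2 it was larger by 0.87 (adjusted p = 0.00711, and 0.0597 without replicate 2 of male and hermaphrodite 1–6 mm buds), with 261 ± 16.4 and 141 ± 4.46 CPM in male buds and 117 ± 8.48 and 116 ± 8.0 CPM in female buds of 7–12 and 1–6 mm. Each replicate number on its own gave the same direction, with 1.23 and 1.26 for AP3-1 and 0.77 and 0.97 for AP3-2.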

How the results depend on the processing

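Over 48 results of the 4 genes (4 genes in 12 comparisons), no low-count filter, a replicate block and the libraries of a comparison alone changed no call and no direction. RLE factors and DESeq2 each turned 1 uncalled value near 0, AP3-2 in female buds by size, to −0.0079 and −0.0072. Without a fold limit 12 more results passed, given here with the share of all tested genes that passed. In male against female buds of 1–6 mm (26.2%) they were 0.87 for PI and 0.73 for AP3-1. In hermaphrodite against female buds of 1–6 mm (24.9%) they were 0.68, 0.54 and 0.90 for AP3-1, AP3-2 and SEP3. At 7–12 mm (31%) that comparison added 0.70 for AP3-2. In male against hermaphrodite buds of 7–12 mm (18.8%) they were 0.83 and 0.46 for AP3-1 and AP3-2. By size they were 1.00 and 0.88 for PI and AP3-2 in male buds (10.9%), and 0.51 for AP3-1 in hermaphrodite buds (5.43%). The size by sex term of male against female buds (7.75%) added 0.87 for AP3-2.

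Of 576 values with 1 library left out, 551 kept direction and call. Calls changed for PI in hermaphrodite against female buds (0.91 to 1.27 at 1–6 mm, 0.97 to 1.28 at 7–12 mm), PI by size in male buds (0.84 to 1.12) and SEP3 in hermaphrodite against female buds of 1–6 mm (0.73 to 1.07). Values that were not called crossed 0 for AP3-1 (−0.078 to 0.157) and AP3-2 (−0.064 to 0.086) by size in female buds, AP3-1 in male against hermaphrodite buds of 1–6 mm (−0.047 to 0.129), and SEP3 at 7–12 mm in male against female (−0.030 to 0.606) and male against hermaphrodite buds (−0.564 to 0.076). In the size by sex terms they did so for PI in hermaphrodite against female (−0.15 to 0.20), SEP3 in male against female (−0.49 to 0.13) and SEP3 in male against hermaphrodite buds (−0.13 to 0.50). Without both replicate 2 libraries of male and hermaphrodite 1–6 mm buds, which have the most unaligned reads, PI in hermaphrodite against female buds of 1–6 mm was 0.91 and no longer called.

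The number of all genes called was less stable. Without a fold limit it was 5062, 4814 and 2059 at 1–6 mm (male against female, hermaphrodite against female, male against hermaphrodite), 6367, 5998 and 3633 at 7–12 mm, and 2116, 1050 and 1056 by size in male, hermaphrodite and female buds. Without the 2 libraries with most unaligned reads it was 412 in male against hermaphrodite buds of 1–6 mm, 629 and 285 by size in male and hermaphrodite buds, and 503, 69 and 5 in the size by sex terms (male against female, hermaphrodite against female, male against hermaphrodite). A replicate block gave 632 by size in female buds, and 847 and 443 in the hermaphrodite against female and male against hermaphrodite terms; the libraries of the comparison alone gave 156, 252 and 4, and DESeq2 gave 357 in the last. With 1 library left out the counts were 558 to 941 (male against hermaphrodite, 1–6 mm), 697 to 1153, 173 to 599 and 104 to 799 by size in male, hermaphrodite and female buds, and 495 to 1406, 27 to 820 and 0 to 274 in the 3 terms. Where edgeR called 0, male 1–6 mm replicate 1 or male 7–12 mm replicate 1 had been left out, and 1382 and 2448 genes had an unadjusted p under 0.05. The cause was not tested. The ratio comparisons kept direction and side of the threshold with 1 count added and moved by less than 1 SD in either replicate alone. With libraries paired by size and replicate number, added after seeing the data, no ratio comparison can pass. Of the 3 genes nearest to each member, Pearson correlation kept 0 for PI, AP3-1 and AP3-2 and 1 for SEP3, and profiles minus their mean kept 2 for PI and AP3-1 and 0 for AP3-2 and SEP3.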
